A study of Mus musculus with 2 samples.

Results

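Aplnr, which encodes the apelin receptor, and Apln, which encodes its secreted peptide ligand apelin, were followed through the liver endothelial cells of a c-Maf KO and a control library. They are 2 of the 32285 genes in the deposited count tables and were taken as a ligand and receptor pair. They were chosen with earlier results of these libraries known, in which Aplnr ranked among the most raised endothelial genes and Apln was lower. Their levels by library are therefore given as a description, without a test. Endothelial and hematopoietic cells had been sorted by flow cytometry from mouse liver at postnatal day 15, captured in droplets and counted as unique molecular identifiers (UMIs), 1 per captured transcript molecule. The c-Maf KO library came from c-Maf KO endothelial cell mice and the control library from control mice of the same age, each a pool of 1 male and 1 female. The sources used here do not give the driver or the allele of the deletion. Each group had 1 library, so that no difference has a replicate check and no p-value was computed. All 95% intervals cover counting error only.

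Apelin is made as a preproprotein that is cut to short active peptides, and its receptor is a G protein-coupled receptor that signals through inhibitory G proteins and beta-arrestins. In growing mouse vessels, Apln is known from the tip cells of sprouts and Aplnr from the endothelium behind them and from veins. In the mouse lung, Aplnr marks general capillary cells and Apln marks the large capillary cells called aerocytes.

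Aplnr (ENSMUSG00000044338) lies on chromosome 2 from 85136225 to 85139923 on the plus strand (GRCm38, GENCODE M21). Its transcript Aplnr-201 is a single exon with the coding sequence from 85136633 to 85137763. Apln (ENSMUSG00000037010) lies on chromosome X from 48025146 to 48034853 on the minus strand. The coding sequence of Apln-201 spans exons 1 and 2 and holds 77 codons, and exon 3, from 48025146 to 48027707, is 3′ untranslated. The end of that coding sequence, at chrX:48028299-48028352, is shown because it encodes a well-studied short active peptide. It is printed 5′ to 3′ on the transcript strand, with the 13 codons of apelin-13 in capitals, 4 codons before them and the stop codon.
Apln-201: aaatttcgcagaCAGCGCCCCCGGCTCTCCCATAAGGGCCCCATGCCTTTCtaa
Reads were counted per gene and not per peptide, so the levels below do not tell which peptide was made. Levels of the 2 genes were not set against each other.

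The deposited annotation placed 2991 of 8166 c-Maf KO cells and 2948 of 7669 control cells in 7 endothelial clusters. These were taken as sinusoidal (S, S2, KOS_1, KOS_2 and KOS_3), large vessel (PV) and cycling (C-EC) cells, from their names and markers. All 6 endothelial markers examined, among them Pecam1 and Cdh5, were present in both libraries, with a summed level of 4455 CPM (UMIs of a gene per 1000000 UMIs of the cells summed) in c-Maf KO and 5770 CPM in control endothelial cells. The median endothelial cell held 7320 UMIs in the c-Maf KO library and 4985.5 UMIs in the control library. Maf, the deleted gene, stood at 162 CPM in c-Maf KO and 2070 CPM in control endothelial cells. The c-Maf KO cells of clusters S and S2 still held 1732 CPM of Maf, against 2158 CPM in control cells of these clusters, so the library labelled c-Maf KO was not free of Maf. Its 336 S and S2 cells included 247 with Xist and no Y-linked UMI (called female-type below) and 0 with Y-linked UMIs and no Xist (male-type). Summed Kupffer cell markers stood at 13.04 CPM in c-Maf KO and 96.6 CPM in control endothelial cells, hepatocyte markers at 23.5 and 68.6 CPM, and stellate and mesenchymal markers at 14.2 and 37.1 CPM, each in that order. KOS_2 carried 910 CPM of summed megakaryocyte markers in the c-Maf KO library and 12466 CPM in the control library. The part of these differences in the results was not tested.

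Aplnr was far more abundant in c-Maf KO than in control endothelial cells. The c-Maf KO library held 3733 Aplnr UMIs in these cells, or 165 CPM (95% interval 159.8 to 170.4), and the control library held 175 UMIs, or 10.8 CPM (9.24 to 12.5). The ratio was 15.3 (13.2 to 17.9), a log2 ratio of 3.93, and Aplnr ranked 29 from the top of 11927 genes with at least 50 UMIs. A call of higher or lower needed a 1.5-fold difference, an interval that did not include equality, and 50 or more UMIs over the 2 sums. By this rule 14.3% of genes were higher and 15.5% lower in endothelial cells, so a call alone sets no gene apart. These were 1702 higher and 1853 lower genes, which became 2266 and 1290 once mitochondrial, ribosomal protein and hemoglobin genes were left out of the totals. Aplnr was higher in female-type cells, at 161 CPM in c-Maf KO and 15.6 CPM in control cells, and in male-type cells, at 217 CPM in c-Maf KO and 9.41 CPM in control cells. Among genes with enough UMIs, 11.8% were called higher among female-type cells and 14.2% among male-type cells. With the clusters weighted as in the control library the log2 ratio was 1.73, over clusters with at least 20 cells in both libraries. This left out KOS_1 and KOS_3, which held 74.2% and 4.13% of the c-Maf KO endothelial Aplnr UMIs. Most of the weight fell on S2 and S, with 11696757 and 3415433 of 16238502 control endothelial UMIs. The value therefore does not describe the main c-Maf KO cluster.

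Within the c-Maf KO library, the level of Aplnr followed the cluster. KOS_1, the largest endothelial cluster of that library, held 2769 UMIs in 1356 cells, or 197 CPM (189.7 to 204). KOS_3 stood at 191 CPM (162 to 223; 154 UMIs in 238 cells) and could not be told from KOS_1, with a ratio of 0.969 (0.818 to 1.14). C-EC followed with 148 CPM (136 to 161; 519 UMIs in 408 cells), PV with 117 CPM (98.0 to 139; 131 UMIs in 135 cells) and KOS_2 with 90.5 CPM (74.4 to 109; 110 UMIs in 518 cells). S2 and S were lowest, at 27.8 CPM (27 UMIs in 113 cells) and 24.4 CPM (23 UMIs in 223 cells), with a ratio of S2 over S of 1.14 (0.629 to 2.08). KOS_1 to KOS_3 together were 7.22-fold higher (5.46 to 9.75) than S and S2 of the same library, where 10.4% of genes were called higher. PV of the same library was 4.49-fold higher (3.22 to 6.35) than S and S2, where 10.9% of genes were called higher, and 0.595-fold (0.496 to 0.710) the level of KOS_1, where 7.17% were called lower. KOS_2 stood at 0.460-fold (0.376 to 0.556) the level of KOS_1, where 21.9% were called lower. The clusters were made from the genes of these cells, so this order describes them and tests nothing.

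In the control library, Aplnr was highest in PV among the clusters with at least 20 cells. Its 56 cells held 81 UMIs, or 187 CPM (148 to 232), which was 33.6-fold higher (24.4 to 46.1) than in control S and S2, where 10.9% of genes were called higher. The 36 PV cells without a Foxf1 or Car4 UMI stood at 52.1 CPM (29.8 to 84.6). S2 had 6.16 CPM (72 UMIs in 1459 cells), C-EC 4.71 CPM (3 UMIs in 89 cells) and S 3.51 CPM (12 UMIs in 1320 cells), and the interval of S2 over S, 0.944 to 3.55, included equality. KOS_2 held 0 UMIs in 21 control cells, which allows up to 60.7 CPM at 3 counts. KOS_1 and KOS_3 held 1 and 2 control cells and were not compared between the libraries.

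**Figure D1:**
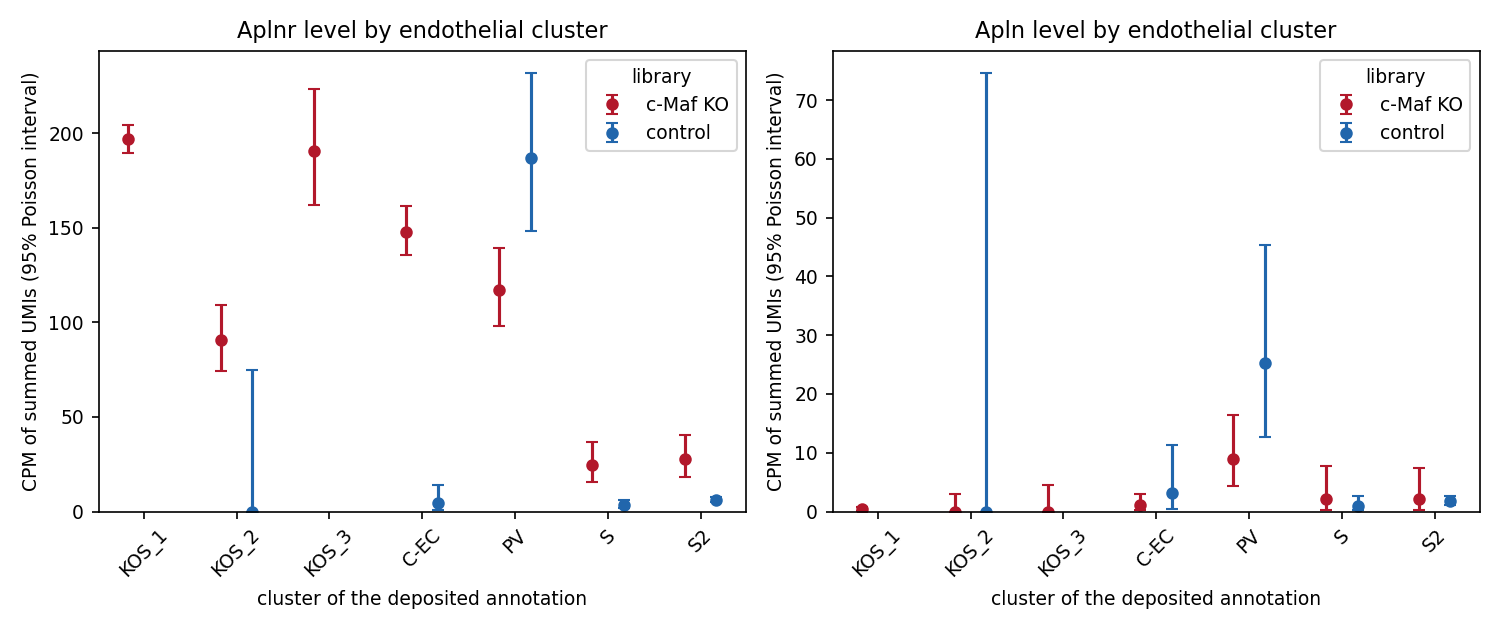
Level of Aplnr (left) and Apln (right) in CPM of summed UMIs for each endothelial cluster with at least 20 cells, with c-Maf KO points in red and control points in blue and exact Poisson 95% intervals. Aplnr stood at 197 CPM in KOS_1 and 191 CPM in KOS_3 of the c-Maf KO library and at 187 CPM in PV of the control library, and Apln was highest in PV in both libraries. The wide intervals of control KOS_2 come from its 21 cells.

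Set side by side by population, Aplnr was higher in c-Maf KO sinusoidal and cycling cells, and its direction in large vessel cells depended on which cells were counted. Sinusoidal cells had 171 CPM in the c-Maf KO library and 6.0 CPM in the control library, a ratio of 28.6 (23.2 to 35.6), where 13.4% of genes were called higher. C-EC cells had 148 CPM in the c-Maf KO library and 4.71 CPM in the control library, a ratio of 31.4 (10.7 to 153) that rests on 3 control UMIs, where 5.79% of genes were called higher. At 1128 UMIs per cell the C-EC log2 ratio was 2.32 (0.71 to 5.71), against 4.75 (3.42 to 7.26) without thinning. In a further draw at that depth, the mean was 0.159 Aplnr UMIs per c-Maf KO C-EC cell. It was 0.0114 per control C-EC cell, from 1 cell with a UMI. The cells left in S and S2 of the c-Maf KO library had 26.1 CPM, against 5.56 CPM in control S and S2 cells, a ratio of 4.70 (3.24 to 6.75), where 3.64% of genes were called higher. At 1128 UMIs per cell that interval included equality, with a log2 ratio of 1.88 (-0.06 to 3.41). A further draw at that depth gave 0.0206 UMIs per c-Maf KO and 0.00206 per control cell of S and S2. These came from 4 and 5 cells with a UMI, in that order. The UMIs left were too few for a call, and the thinned value moved with the draw.

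Splits of the clusters by other genes were chosen after values were seen. Of the c-Maf KO cells of S and S2, the 285 cells with a Maf UMI held 47 Aplnr UMIs, or 25.5 CPM, and the 51 cells without one held 3 UMIs, or 40.3 CPM. Among control S and S2 cells, the 2511 with a Maf UMI had 5.61 CPM and the 268 without had 3.22 CPM, from 1 UMI. In KOS_1, 83 cells with a Maf UMI had 174 CPM of Aplnr and 1273 without had 199 CPM. Vwf, the von Willebrand factor gene of larger vessels, gave another split. In c-Maf KO S and S2, the 26 cells with a Vwf UMI had 51.5 CPM of Aplnr, from 11 UMIs, and the 310 without had 22.9 CPM. The 148 control S and S2 cells with a Vwf UMI had 23.9 CPM of Aplnr, against 4.08 CPM in the 2631 without. In KOS_1 the order was the other way, with 167 CPM in the 325 cells with a Vwf UMI and 207 CPM in the 1031 without.

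In PV, the large vessel cluster, Aplnr stood at 117 CPM in the c-Maf KO library and 187 CPM in the control library, a ratio of 0.629 (0.473 to 0.840). It was called lower there, as were 6.22% of genes. A UMI was seen in 35 of 135 c-Maf KO cells (25.9%, 18.8 to 34.1) and in 21 of 56 control cells (37.5%, 24.9 to 51.5). The control sum leaned on few cells, since 1 cell held 17 of its 81 UMIs, and without the richest cell of each library the levels were 109.6 CPM in the c-Maf KO library and 149.96 CPM in the control library, and the call was lost. PV cells differed in Foxf1 and Car4, which are part of a list of 5 lung endothelial markers. The list summed to 1564 CPM in c-Maf KO and 1283 CPM in control PV cells. In control PV, Ednrb of that list had 183 CPM in cells with an Aplnr UMI and 901 CPM in those without. Calcrl went the other way, with 678 and 256 CPM, and Tbx2 had 2 and 6 UMIs, in that order. A split of PV by these other markers was not tested. Control PV included 20 cells with a UMI of Foxf1 or Car4, genes known from lung endothelium, and these held 65 of the 81 Aplnr UMIs, at 512 CPM. In the c-Maf KO library 10 of 135 PV cells had such a UMI and held 14 Aplnr UMIs, at 290.1 CPM. In the other PV cells Aplnr was higher in the c-Maf KO library, at 109 CPM (117 UMIs in 125 cells), against 52.1 CPM (16 UMIs in 36 cells) in the control library, a log2 ratio of 1.03 (0.31 to 1.92). Among PV cells with a Vwf UMI the levels were 113 CPM in 105 c-Maf KO cells and 115 CPM in 27 control cells, a log2 ratio of -0.049 (-0.67 to 0.67). By pooled mouse, female-type PV cells had 78.2 CPM in the c-Maf KO library and 189.5 CPM in the control library, and male-type cells had 176 and 243 CPM in that order, the control value from 9 cells. At 1128 UMIs per cell the PV log2 ratio was 0.25 (-0.97 to 1.79). Stellate and mesenchymal markers summed to 236 CPM in c-Maf KO and 822 CPM in control PV cells, with Lrat and Pdgfrb at 0 in the control, and lymphatic markers to 174 and 921 CPM in that order. Their part in the PV result was not tested.

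PV cells with and without Aplnr differed in their other transcripts in both libraries. Gja5, the connexin 40 gene of arteries, was seen in 1 of 35 c-Maf KO cells with an Aplnr UMI and in 46 of 100 without, and in 0 of 21 control cells with an Aplnr UMI and 15 of 35 without. The 0 of 21 allows a share of up to 14.3% at 3 counts. Gja4, another arterial connexin gene, was seen in 28.6% of c-Maf KO cells with Aplnr and 71.0% of those without, while in the control library the shares were 33.3% and 54.3% with overlapping intervals. Gpihbp1, the capillary anchor of lipoprotein lipase, went the other way, in 33 of 35 c-Maf KO cells with Aplnr and 81 of 100 without, and in 21 of 21 control cells with Aplnr and 24 of 35 without. Kit, the stem cell factor receptor gene, was in 4 of 35 c-Maf KO cells with Aplnr and 4 of 100 without, and in 12 of 21 control cells with Aplnr and 4 of 35 without. Vwf was in 24 of 35 c-Maf KO cells with Aplnr and 81 of 100 without, and in 8 of 21 control cells with Aplnr and 19 of 35 without. Its level was 1397 CPM in c-Maf KO cells with Aplnr and 942 CPM in those without, and 306 CPM in control cells with Aplnr and 905 CPM in those without. The intervals of the shares overlapped for Vwf in both libraries and for Gpihbp1 and Kit in the c-Maf KO library. The median depth was 8708 UMIs in c-Maf KO cells with Aplnr and 7804 without, and 5960 UMIs in control cells with Aplnr and 7790 without.

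**Figure D2:**
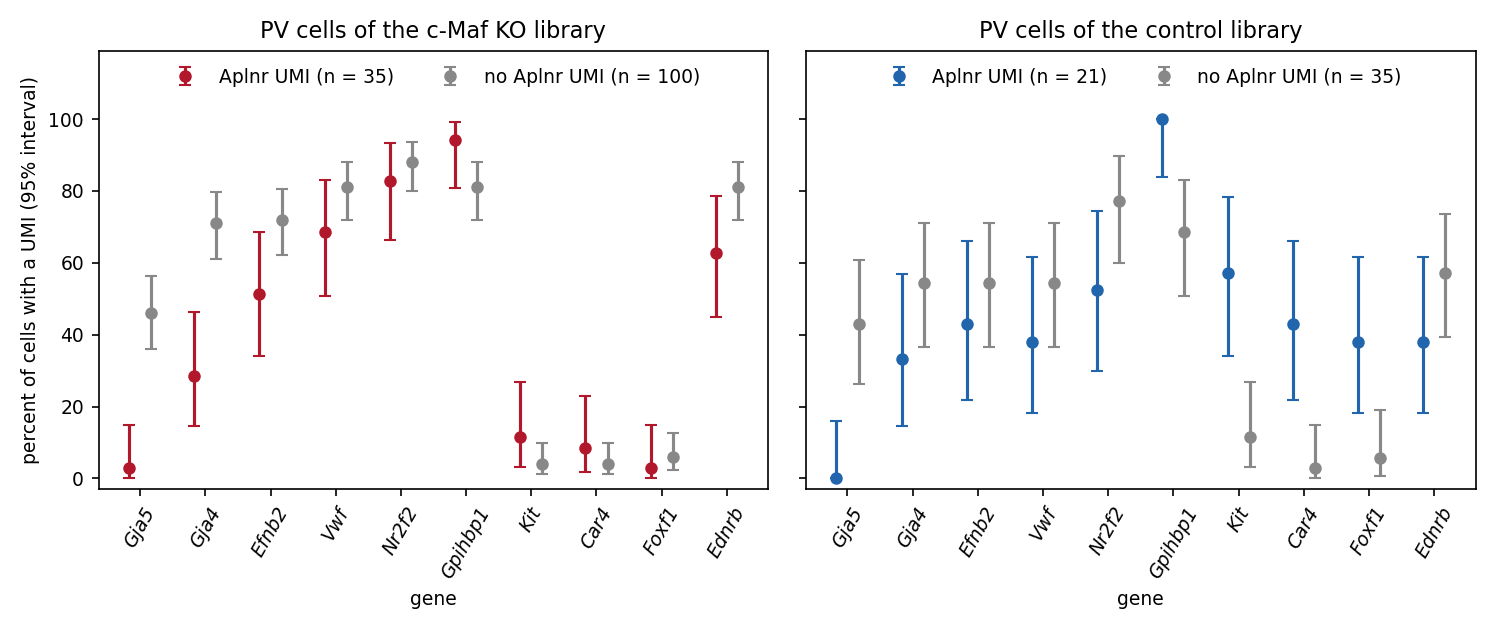
Percent of PV cells with a UMI of each named gene, split by presence of an Aplnr UMI (coloured) or its absence (grey), in the c-Maf KO library (left) and the control library (right), with exact binomial 95% intervals. Gja5 was nearly missing from cells with Aplnr in both libraries, while Car4, Foxf1 and Kit were more frequent in cells with Aplnr in the control library.

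Aplnr was detected in 1204 of 2991 c-Maf KO endothelial cells, or 40.3% (38.5 to 42.0), and in 85 of 2948 control cells, or 2.88% (2.31 to 3.55). In the B lineage cluster B3, which should lack the gene, it was seen in 0.418% of c-Maf KO cells (median depth 3612 UMIs) and 0.120% of control cells (median 4414). Over all B lineage clusters (B1, B2, B3 and CLP) the shares were 0.708% and 0.111% in that order. With each cell thinned to 1128 UMIs, which left out 231 c-Maf KO and 363 control cells, the shares in endothelial cells were 13.7% in the c-Maf KO library and 0.503% in the control library. At 5000 UMIs, which kept 1832 c-Maf KO and 1472 control cells, they were 40.9% and 3.60% in that order. The limit of 5000 UMIs also changed the cluster mix. It kept 1223 of 1356 KOS_1 cells, but 39 of 518 c-Maf KO KOS_2 cells and 169 of 1320 control S cells. At that depth Aplnr was seen in 47.3% of 1223 KOS_1 cells, 44.3% of 246 c-Maf KO C-EC cells and 0 of 52 control C-EC cells, which allows up to 5.77% at 3 counts.

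KOS_1 cells were not uniform in Aplnr. At 5000 UMIs per cell their mean was 0.982 UMIs and the variance over the mean was 1.95, where 1 would follow from counting alone. A share of 62.5% with a UMI would follow from that mean with counting alone, above the 47.3% seen. In PV the spread was wider, with a variance over the mean of 2.25 in 113 c-Maf KO cells and 4.14 in 42 control cells. At least 4 UMIs were held by 2.65% of these c-Maf KO and 14.3% of these control PV cells. A variance above the mean was not particular to KOS_1 and PV. Its value over the mean was 3.04 in c-Maf KO S2, 2.03 in control S2, 2.03 in c-Maf KO KOS_3 and 1.74 in c-Maf KO C-EC cells. Cells with a UMI numbered 6 of 102, 32 of 1207, 15 of 29 and 109 of 246 in that order, against 579 of 1223 in KOS_1. The values of c-Maf KO S2 and KOS_3 thus rest on few cells.

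**Figure D3:**
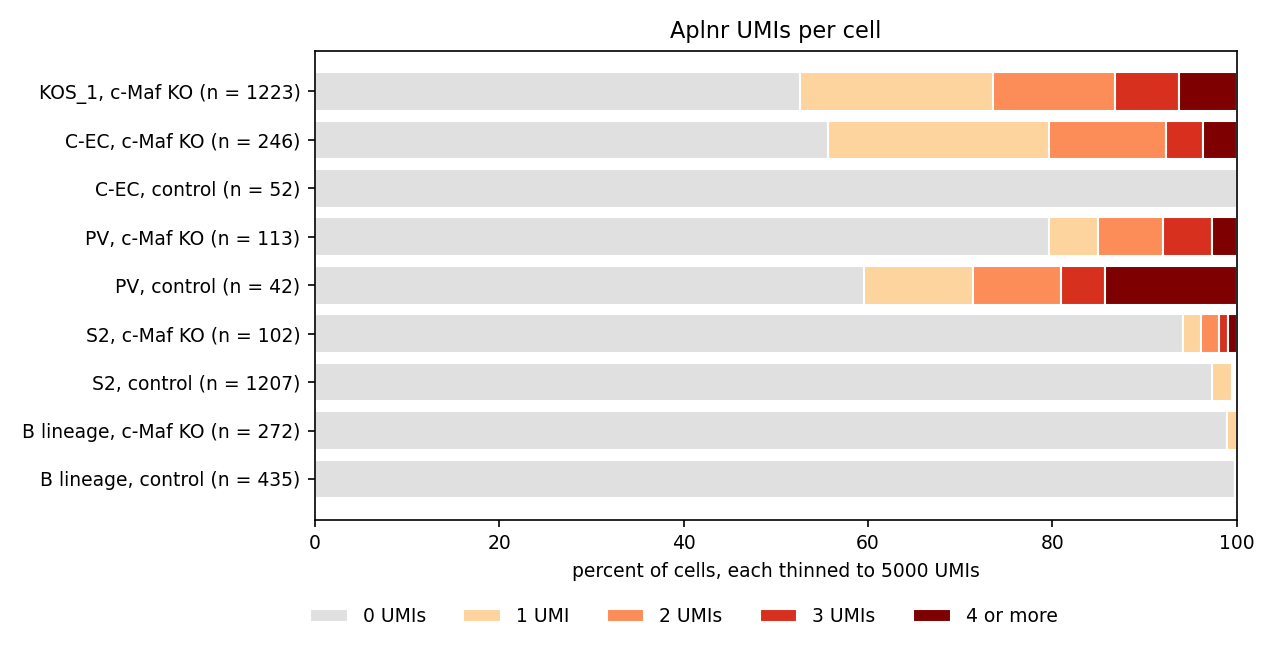
Share of cells by number of Aplnr UMIs, with each cell thinned to 5000 UMIs, for 4 endothelial clusters and for B lineage cells as background, c-Maf KO above control. In KOS_1 52.7% of cells had 0 UMIs, against 97.3% of control S2 cells, and control PV had the widest block of cells with at least 4 UMIs, at 14.3%.

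To describe KOS_1 cells with and without Aplnr, 1208 cells not marked as doublets were thinned to 5000 UMIs in a further draw, of which 596 had an Aplnr UMI and 612 had none. The 8 genes with the largest difference in share each way, among 8181 genes, are named because of these values. Lyve1, the hyaluronan receptor gene of sinusoids and lymphatics, was in 63.3% of cells with Aplnr and 47.5% of cells without. Odc1, the ornithine decarboxylase of polyamine synthesis, was in 45.5% and 30.2%, and Sox11, a developmental transcription factor gene, in 34.4% and 22.4%, cells with Aplnr first. Akap12, Aprt, Llph, C1qbp and Bok completed that group with differences of 9.79 to 10.7 percentage points. In the other direction stood Pdlim3, a gene of an actin-associated protein, in 31.4% of cells with Aplnr and 45.6% of cells without. Msr1, the macrophage scavenger receptor, was in 5.70% and 17.2%, and Efnb1, an ephrin ligand, in 44.0% and 55.7%, in the same order. Ntn4, Adam23, Kctd10, Rin2 and Mecom were lower with Aplnr by 10.1 to 12.2 points. The median absolute difference over all genes was 1.45 points, and a high percentile of it was 6.09 points. The 8 genes each way were picked as the extremes of 8181 genes. The median alone therefore does not show how unusual their gaps are, and none was tested. Among arterial genes Efnb2 was in 33.2% of cells with Aplnr and 43.1% without, Gja4 in 11.1% and 19.1%, and Sox17 in 28.0% and 28.1%, in the same order. Klf2, the flow-responsive transcription factor, was in 64.4% of cells with Aplnr and 72.9% without. Nos3, Hdac5, Hdac4 and Mef2c, listed with Klf2 below, differed less, by -3.03, -1.46, -0.386 and -0.368 points. An S phase call was carried by 24.5% of cells with Aplnr and 19.0% without, and the part of this in the gene differences was not tested.

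**Figure D4:**
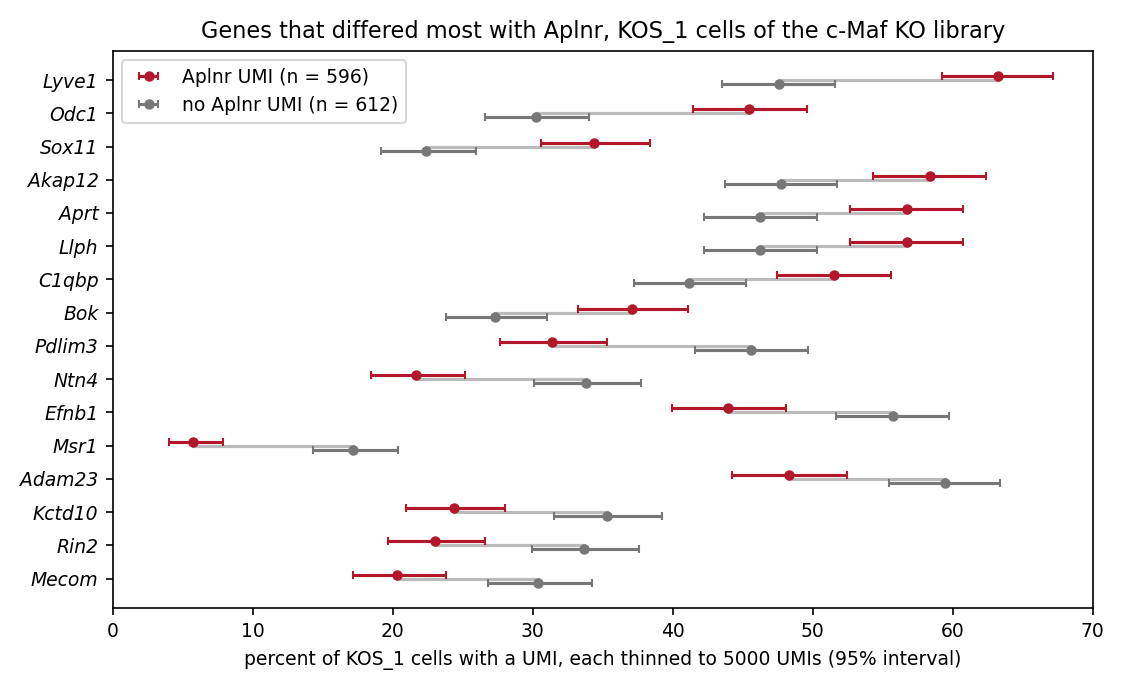
Percent of KOS_1 cells of the c-Maf KO library with a UMI of each gene, for cells with (red) and without (grey) an Aplnr UMI at 5000 UMIs per cell, with exact binomial 95% intervals. Lyve1 and Odc1 showed the widest gaps toward cells with Aplnr, and Pdlim3 toward cells without it.

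Aplnr was present in every phase call of the c-Maf KO endothelium. KOS_1 cells called G1 had 190.1 CPM (2024 UMIs in 1047 cells) and those called S had 219 CPM (745 UMIs in 308 cells). In KOS_3, 197 cells called G1 had 162 CPM and 36 called S had 356 CPM, from 43 UMIs. C-EC cells of the c-Maf KO library had 107 CPM in 17 cells called G1, 169 CPM in 107 called S and 145 CPM in 284 called G2M. Control endothelial cells called S held 0 Aplnr UMIs in 142 cells at a median of 1640 UMIs, which allows up to 5.81 CPM at 3 counts. Among cells called G1 alone, the log2 ratio was 3.84 (3.62 to 4.08).

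Apln was scarce in both libraries. It had 23 UMIs in c-Maf KO endothelial cells, or 1.02 CPM (0.645 to 1.53), and 36 UMIs in control cells, or 2.22 CPM (1.55 to 3.07). The ratio was 0.459 (0.259 to 0.795), a log2 ratio of -1.11, which met the rule for lower. A single control PV cell held 11 of the 36 UMIs. Without the richest cell of each library the log2 ratio was -0.94 and the sums together held fewer than 50 UMIs. With the clusters weighted as in the control library, which left out KOS_1 and KOS_3, it was -0.0029. With cells weighted equally it was -0.51, so the call depended on few cells and on the clusters counted. Apln is X-linked and the mix of the pooled mice differed, with 1692 female-type and 328 male-type cells in the c-Maf KO library and 772 and 846 in the control library. Female-type cells held 21 Apln UMIs in the c-Maf KO and 25 in the control library, and male-type cells 1 and 7 in that order. The part of this mix in the ratio was not tested. PV had the highest Apln level of any cluster in both libraries, at 8.95 CPM in the c-Maf KO library (10 UMIs in 5 cells) and 25.3 CPM in the control library (11 UMIs in 1 cell). S2 had 2 UMIs in 1 c-Maf KO cell and 20 UMIs in 17 control cells, or 2.06 and 1.71 CPM. S had 2 UMIs in c-Maf KO and 3 in control cells, and C-EC 4 in c-Maf KO and 2 in control cells. KOS_1 had 5 UMIs in 1356 cells, or 0.356 CPM (0.115 to 0.830), and KOS_2 and KOS_3 had 0. In hematopoietic cells 4 UMIs were seen in the c-Maf KO library and 8 in the control library, or 0.140 and 0.284 CPM. Apela, the gene of the second ligand of the receptor, had 0 UMIs in the endothelial cells of both libraries.

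Ligand and receptor were seen together in 17 endothelial cells. In the c-Maf KO library 9 of 16 cells with an Apln UMI also held Aplnr, where shares taken as independent would give 6.44. In the control library 8 of 22 did, where 0.634 would follow. Of these 8 cells, 7 lay in S2, among 17 S2 cells with Apln, where 0.594 would follow, and 1 was the PV cell with 11 Apln UMIs, which held 1 Aplnr UMI. The c-Maf KO cells with both lay in KOS_1 (3), PV (3) and C-EC (3). Of the 17 cells with both, 16 held at least 7868 UMIs, and the other held 1458. At 5000 UMIs per cell 2 of 6 c-Maf KO and 2 of 9 control cells with Apln held Aplnr, where 2.46 and 0.324 would follow, so the counts are too small to read an association. The c-Maf KO PV cell richest in Apln, with 5 UMIs, held 0 Aplnr, Vwf and Gja5 UMIs. None of the 38 endothelial cells with Apln held a Gja5 UMI. Of these cells only 5 in the c-Maf KO and 1 in the control library lay in PV. That cluster held 137 of 145 c-Maf KO and 54 of 54 control Gja5 UMIs. Esm1, a tip cell gene, was seen in 3 of 16 c-Maf KO and 0 of 22 control cells with Apln. Shares of all endothelial cells with Gja5 or Esm1 were not taken, so these counts set no trait of cells with Apln.

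Other genes of the apelin pathway and of vessel types were read from lists chosen with earlier results known, with 61 members of which 52 had at least 50 UMIs. Of these, 9 were called higher, 17 lower and 26 neither in endothelial cells, where 14.3% of all genes were higher and 15.5% lower, and their median log2 ratio was -0.20, against -0.08 over all 11927 genes. With mitochondrial, ribosomal protein and hemoglobin genes left out of the totals, the median of all genes moved up by 0.16. The counts were then 9 higher and 13 lower, beside 2266 and 1290 of 11927 genes. The calls lost in this way were Gnaq (-0.44), Gpihbp1 (-0.49), Tbx2 (-0.49) and Ephb4 (-0.44), as log2 ratios. Of the enzymes that cut apelin, Furin, the proprotein convertase, had 43.9 CPM in c-Maf KO and 51.7 CPM in control cells and was neither, and Mme and Klkb1 had fewer than 50 UMIs. The related angiotensin receptors Agtr1a, Agtr1b and Agtr2 were below that limit as well.

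Among 9 transducers of the receptor, 1 was higher, 3 lower and 5 neither, beside 14.3% higher and 15.5% lower over all genes. Gnai1, an inhibitory G protein subunit, was higher at 23.3 CPM in c-Maf KO and 12.1 CPM in control cells. Arrb1 and Arrb2, the beta-arrestins that bind active receptors, were lower, Arrb1 at 65.6 CPM in c-Maf KO and 173 CPM in control cells and Arrb2 at 70.8 and 156 CPM in that order. Gnaq, a subunit that acts on phospholipase C, was lower with 82.1 CPM in c-Maf KO and 125 CPM in control cells, a call lost with the other totals. Gnai2, another inhibitory subunit, had 1242 CPM in c-Maf KO and 1230 CPM in control cells. Of 7 measured effectors and targets, 1 was higher and 1 lower, beside the same shares over all genes. Edn1, the endothelin gene, was higher at 18.0 CPM in c-Maf KO and 8.07 CPM in control cells. Fgfr1, a fibroblast growth factor receptor, was lower at 12.3 and 35.8 CPM in that order. Klf2, Mef2c, Nos3, Hdac4 and Hdac5, the genes tied to apelin signalling in endothelium, were neither, with log2 ratios of -0.38 to 0.24.

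The 11 tip cell genes gave 4 higher, 2 lower and 5 neither, beside 14.3% higher and 15.5% lower over all genes. Cd34, a surface sialomucin, had 329.6 CPM in c-Maf KO and 28.9 CPM in control cells, and Pdgfb, the growth factor that recruits pericytes, had 35.7 and 3.88 CPM in the same order. Esm1 and Cxcr4 were higher with log2 ratios of 1.01 and 0.92, but Esm1 stood at -0.25 in male-type cells and Cxcr4 at -0.0945 with cells thinned to 1128 UMIs. Angpt2 and Unc5b were lower at -0.77 and -0.98. Of 5 general capillary genes of the lung, Plvap, the fenestral diaphragm gene, was higher, Gpihbp1, Kit and Ptprb were lower (Gpihbp1 not with the other totals) and Cd93 was neither. Kit had 36.6 CPM in c-Maf KO and 168 CPM in control cells. All 3 measured aerocyte genes, Car4, Ednrb and Tbx2, were lower, but Tbx2 lost its call with the other totals, and Car4 stood at 1.21 in male-type cells and at 0.28 with cells thinned to 1128 UMIs. Among 6 venous genes Vwf was higher, Ephb4 (not with the other totals) and Nrp2 lower and 3 neither, and among 5 arterial genes Gja5 was higher, Gja4 lower and 3 neither. Of the Gja5 UMIs, 137 of 145 in the c-Maf KO library and 54 of 54 in the control library lay in PV, where its level was 123 CPM in c-Maf KO and 124 CPM in control cells and it was neither. Vegfa and Bnip3 were lower among 5 hypoxia response genes, Vegfa at 10.3 CPM in c-Maf KO and 45.8 CPM in control cells, and 3 were neither.

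In PV 39 list members had at least 50 UMIs, of which 4 were called higher, 4 lower and 31 neither, where 6.22% of all genes were called higher and 6.22% lower. Ednrb, the endothelin B receptor gene, had 1216 CPM in c-Maf KO and 647 CPM in control PV cells. Vwf had 1067 CPM in c-Maf KO and 693 CPM in control PV cells, and Gja4 and Nr2f2 were the other members called higher. Kit, Car4, Hey1 and Pdgfb were lower, Pdgfb at 62.7 CPM in c-Maf KO and 96.7 CPM in control PV cells. All 7 measured transducers and all 7 measured effectors were neither in PV.

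**Figure D5:**
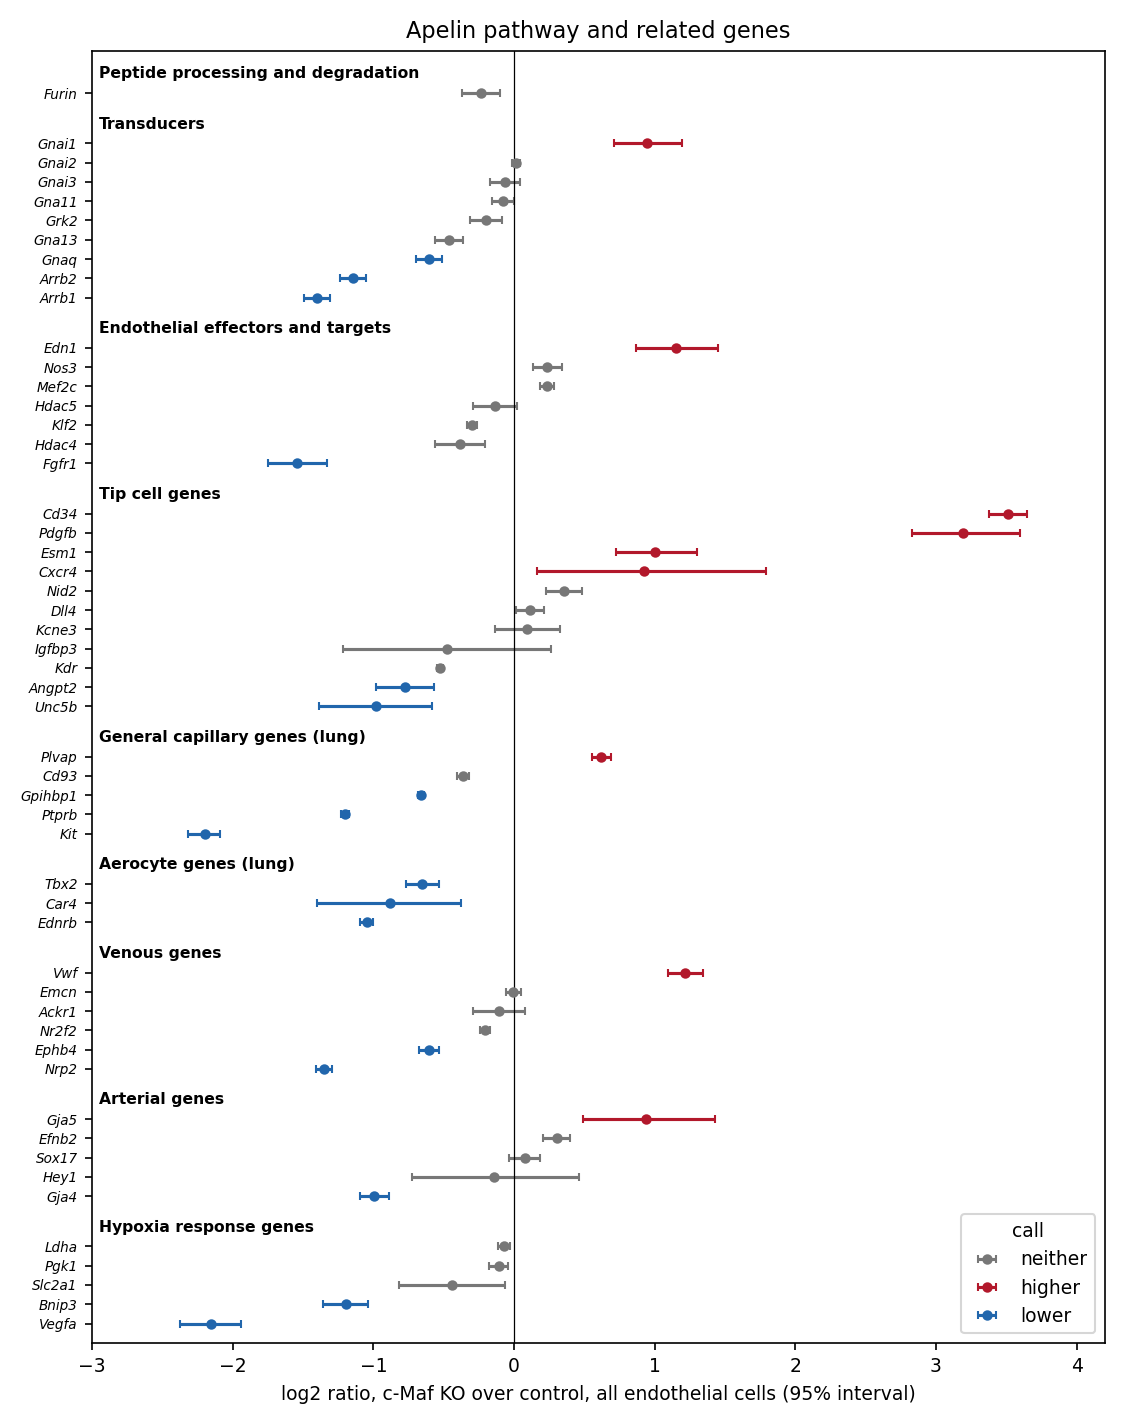
Difference in level between c-Maf KO and control endothelial cells as a log2 ratio, with 95% counting intervals, for the 52 list members with at least 50 UMIs, grouped by list and coloured by call. Cd34 and Pdgfb lie farthest to the right, at 3.51 and 3.19, and Kit and Vegfa farthest to the left.

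Genes with a pattern like that of Aplnr were sought over the 12 cluster sums with at least 20 cells, as Pearson's r of log2(CPM + 1) among 9926 genes. The 12 sums come from 2 libraries and from clusters made with these genes, so r is a description. Lhfp (r = 0.970), Tcf15 (0.961), Fbn1 (0.960), Gulp1 (0.952) and Cd34 (0.951) were most like Aplnr. Lhfp had 37.6 CPM in c-Maf KO and 3.26 CPM in control endothelial cells, and Tcf15, a transcription factor gene, had 46.4 and 6.16 CPM in that order. The r of Maf with Aplnr was -0.731. For Apln the 5 were Lpl (0.931), Dcn (0.912), Arl6ip5 (0.903), Gstt2 (0.891) and Rras2 (0.887), from sums of at most 20 UMIs of Apln. Of the 38 endothelial cells with Apln, 37 held 0 UMIs of Dcn, a mesenchymal gene. Dcn was low in endothelial cells as a whole, at 7.96 CPM in c-Maf KO and 26.4 CPM in control cells. The share of all endothelial cells without Dcn was not taken.

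Outside the endothelial clusters Aplnr was lower as a whole, with higher levels in a few small clusters. Hematopoietic cells had 93 UMIs, or 3.26 CPM, in the c-Maf KO library and 9 UMIs, or 0.319 CPM, in the control library. B lineage cells had 2.17 CPM in the c-Maf KO library and 0.504 CPM in the control library, from 20 and 4 UMIs, fewer than the 50 needed for a call. Cluster D, a small cluster outside the endothelial clusters, had 54 Aplnr UMIs in 21 of 72 c-Maf KO cells, or 107 CPM (80.4 to 139.6), and 0 UMIs in 56 control cells. The same cluster carried endothelial markers in both libraries, at 3292 CPM in c-Maf KO cells with Aplnr, 3546 CPM in c-Maf KO cells without and 3546 CPM in control cells. Cluster K, read as Kupffer cells, had 15 Aplnr UMIs in 6 of 193 c-Maf KO cells and 1 UMI in 766 control cells. Cluster H had 2 UMIs in 18 c-Maf KO cells, with an interval of 2.42 to 72.2 CPM, and 5 UMIs in 66 control cells, or 19.6 CPM (6.36 to 45.7). The 6 cells of cluster K with Aplnr held 2659 CPM of endothelial markers at a median of 12783 UMIs, against 556 CPM at 1906 UMIs in the other c-Maf KO cells of that cluster.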

How the data were processed

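Raw UMI counts per gene and cell were deposited by the authors for 2 libraries of 10X Chromium droplets. The submitters' processing notes list the build mm10 and, without saying what each did, Cell Ranger 4.0.0, FastQC 0.11.3 and Seurat 3.2.3. The authors deposited, per the file headers, a table of genotype, cluster, cell cycle phase call, sex call, UMI counts and percent of mitochondrial UMIs for 15835 cells in 23 clusters, and its clusters were used as given. A total of 21 annotated barcodes occurred in both libraries.

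UMIs were summed per library and cell group and given as CPM with exact Poisson 95% intervals, ratios with exact conditional binomial intervals and shares with exact Clopper-Pearson intervals, in Python 3.11.15 with NumPy 2.4.6, SciPy 1.17.1 and pandas 2.3.3. Log2 ratios used sums with 0.5 UMI added. UMIs are counted molecules, yet intervals and limits from 3 counts cover counting error only. No test was run, since each group had 1 library. Doublets were marked with Scrublet in Scanpy 1.11.5 at an expected rate of 0.06, which marked 173 c-Maf KO (2.12%) and 127 control cells (1.66%), and were kept except where stated. Cells were thinned to 1128 UMIs (10th percentile of depth in the endothelium) or to 5000. Ratios and shares at 1128 UMIs came from separate random draws, so values from few UMIs can move with the draw. Female-type cells had an Xist UMI and none of 4 Y-linked genes, and male-type cells the reverse. The deposited sex call was not used. Scripts were tested on simulated data.

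Apln and Aplnr are given in full, then the list members with at least 50 UMIs, the 5 genes most like each in pattern (at least 200 UMIs), and the 8 companions each way. The members and lists were chosen with earlier results of these data known, and 1 list member is not reported here. Positions and the sequence came from GENCODE M21 (GRCm38). The closing section gives the alternatives, among them depth, doublets, mitochondrial share, pooled mouse and cluster mix.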

Additional observations from a re-analysis of the deposited data

Results flagged for a closer look

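For 4 genes (Aplnr and 3 list members) the log2 ratio between c-Maf KO and control cells met the rule for a call in PV and in both sinusoidal and C-EC cells, with opposite directions, and none of these differences was tested. For Aplnr it was -0.67 in PV, 4.83 in sinusoidal and 4.75 in C-EC cells, so PV lay at -5.50 from sinusoidal and -5.43 from C-EC cells. The sign of the PV value turned to 1.03 without PV cells that held a Foxf1 or Car4 UMI. Pdgfb, a tip cell gene, lay at -5.23 from sinusoidal and -4.81 from C-EC cells in the same way. Ednrb was higher in PV and lower in the others, with differences of 2.15 from sinusoidal and 2.81 from C-EC cells. Gja4 did likewise, with differences of 1.99 and 1.81 in that order.

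Barcodes in the count tables that the deposited annotation left out also held Aplnr. It stood at 103 CPM (96.5 to 110.3; 878 UMIs in 892 barcodes) in the c-Maf KO library, against 10.7 CPM (8.65 to 13.05; 96 UMIs in 1369 barcodes) in the control library. These barcodes had no cluster, so their cell types are not known, and the part of cell mix in this difference was not tested.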

How the results depend on the processing

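No paired analysis was possible because each group had 1 library. The higher Aplnr call in all endothelial cells held under all 13 alternatives, with log2 ratios of 1.73 (cluster mix of the control) to 4.57 (under 10% mitochondrial UMIs), as did the sinusoidal call under its 5. The cluster mix left out KOS_1 and KOS_3. For it and for equal weight of cells, the 1.5-fold size alone was asked of both genes, without an interval. In S and S2, thinning to 1128 UMIs gave 1.88 and left too few UMIs for a call. The lower PV value turned to 0.25 when thinned and to 1.03 without Foxf1 or Car4 cells, and lost its call at -0.51 in male-type cells, -0.46 without the richest cell and -0.049 in Vwf cells. These PV alternatives and the depth of 5000 UMIs were chosen after seeing the data. The lower Apln call was lost with equal weight of cells (-0.51), thinning (-0.46), under 10% mitochondrial UMIs (-1.69), female-type (-1.60) or male-type cells (-1.35), without the richest cell (-0.94), with the control cluster mix (-0.0029) and in G1 (-1.22). Fewer UMIs than the limit remained in most of these, and the cause was otherwise not tested.

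The c-Maf KO share with Aplnr moved to 13.7% at 1128 UMIs, 42.6% at 1000 UMIs or more, 46.6% under 10% mitochondrial UMIs, 47.5% for female-type and 58.2% for male-type cells. The control share moved to 0.503% at 1128 and 3.60% at 5000 UMIs, 4.92% for female-type and 4.02% for male-type cells. Typing needs a captured Xist or Y-linked UMI, and many cells had no type. Female-type and male-type cells numbered 1692 and 328 of 2991 c-Maf KO cells, and 772 and 846 of 2948 control cells. Shares by type were not matched for depth, so they do not give a difference by pooled mouse. Apln shares moved in c-Maf KO cells to 0.145% (1128 UMIs) and 0.305% (male-type), and in control cells to 0.116% (1128 UMIs) and 1.42% (female-type). Cells with both genes numbered 2 and 0 at 1128 UMIs and 2 and 2 at 5000, c-Maf KO first. List members numbered 5 higher and 14 lower in female-type cells, beside 1322 and 1517 of 11227 genes, and 5 higher and 9 lower at 2-fold, beside 941 and 770 of 11927 genes. Cxcr4 (-0.0945) and Car4 (0.28) changed sign when thinned, and Car4 (1.21) and Esm1 (-0.25) in male-type cells.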

Other observations

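Several small hematopoietic groups of the c-Maf KO library held Aplnr in few cells. Cells of the cluster CMP held 11 UMIs, 7 of them in 1 cell, against 1 UMI in control CMP cells. The 4 c-Maf KO CMP cells with Aplnr held 1935 CPM of endothelial markers, against 200 CPM in the 137 without. In the control library the 1 CMP cell with Aplnr held 2853 CPM, against 406 CPM in the 158 without. Leukocytes_1 held 10 UMIs in 5 of 219 c-Maf KO cells, 6 of them in 1 cell, against 0 UMIs in 166 control cells. The c-Maf KO Leukocytes_1 cells with Aplnr held 1541 CPM of endothelial markers, against 64.7 CPM in those without. Apln was seen in 4 of 212 control neutrophils with 1 UMI each, and in 0 c-Maf KO neutrophils.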
